A study of Mus musculus with 4 samples.

Results

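The Myc, Max and Mxd network is a set of 10 transcription factor genes, Myc, Mycn, Mycl, Max, Mxd1, Mxd3, Mxd4, Mxi1, Mnt and Mga. They were taken by symbol from an expression table of 27179 genes, and all 10 have a row there. The table holds RNA-seq of mouse acute myeloid leukemia (AML) cells, 2 samples of B7-H4-null and 2 of wild-type cells, all on the C57BL/6 strain. Cells came from bone marrow and were sorted as leukemia stem cells (LSCs), thought to maintain the disease, by yellow fluorescent protein, Mac-1 and c-Kit, which all 4 samples therefore share. B7-H4, encoded by Vtcn1, is a surface protein of the B7 family that restrains T cells. The labels give neither the oncogene of the leukemia nor the age of the animals. They also do not tell whether a sample stands for an animal of its own, so p-values measure no more than how far these samples vary, possibly for technical reasons. The comparison asks which of these genes differ between B7-H4-null and wild-type LSCs.

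Myc proteins bind DNA as partners of Max at the E-box, the palindrome CACGTG, and recruit coactivators to genes of growth and metabolism. The Mxd proteins, Mnt and Mga compete for Max and for the same sites. The Mxd proteins and Mnt bring the Sin3 corepressor with its histone deacetylases, and Mga works in a Polycomb complex. In blood formation Myc is high in dividing progenitors, while Mxd1 is known to be induced as myeloid cells mature.

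Values are RPKM, reads scaled to the length of the gene and the size of the library. Levels set side by side between genes therefore depend on the length taken for each gene. The library totals behind them were 9419425 to 10814448 reads. Kit stood at 11.02 and 9.37 RPKM in B7-H4-null and at 24.01 and 7.19 RPKM in wild-type libraries. Itgam, a chain of Mac-1, had 82.9 and 59.9 against 114 and 86.9 RPKM. Itgb2, the other chain, had 123.1 and 146.1 against 212.6 and 212.9 RPKM. Vtcn1 had 0.0405 and 0.0353 RPKM in B7-H4-null and 0 RPKM in both wild-type libraries, too little to check the genotype labels. Of the markers of other cells, Cd3e, Fcer1a and Cdh5 were at 0.140 RPKM or less in every library, while others on the same lists were well above that. Nkg7, of the T and NK list, stood at 21.02 and 39.2 RPKM in B7-H4-null and 31.4 and 29.1 RPKM in wild-type libraries. The monocyte and macrophage list summed to 47.9 and 45.9 against 46.6 and 49.4 RPKM, nearly all of it Csf1r and Adgre1, and the megakaryocyte list to 28.5 and 14.9 against 28.1 and 15.0 RPKM. The mast cell list was higher in both B7-H4-null libraries, at 108.8 and 49.9 against 29.9 and 28.04 RPKM in sum. This came from Cpa3 (54.4 and 21.7 against 2.10 and 7.76 RPKM) and Mcpt8 (54.4 and 28.2 against 27.8 and 20.3 RPKM). Fcer1a of that list was at 0 RPKM in every library, so the sum need not stand for mast cells. Pecam1, which endothelium and some blood cells carry, stood at 37.1 and 31.0 against 16.4 and 17.7 RPKM, and the B cell gene Cd79b at 58.7 and 60.7 against 35.4 and 45.5 RPKM. The part of such cells in the results was not tested.

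The E-box stood in the promoters of some of the genes themselves. RefSeq promoter windows on GRCm38.p6, running from 250 bases before to 50 bases after the start of transcription, were at hand for 9 of the 10 genes, all but Myc. These 9 genes have 11 windows, since Mxi1 has 3. CACGTG, which reads the same on both strands, was in 3 of the 11, each of another gene, against 7.15% of all 32851 windows. Counted by gene, 12.2% of the tested genes with a window held it. The 3 windows are shown because they carry the network's own binding letters, which are in capitals, 5′ to 3′ on the strand of the gene. A match of letters is a description and does not show binding.
Max, chr12:76962199-76962498, minus strand: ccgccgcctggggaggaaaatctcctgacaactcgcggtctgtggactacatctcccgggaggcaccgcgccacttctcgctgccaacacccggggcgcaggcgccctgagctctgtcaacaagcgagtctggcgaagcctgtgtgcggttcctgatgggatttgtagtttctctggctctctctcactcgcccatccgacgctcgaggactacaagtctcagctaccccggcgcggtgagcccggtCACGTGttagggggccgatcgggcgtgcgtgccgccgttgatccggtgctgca
Mnt, chr11:74830674-74830973, plus strand: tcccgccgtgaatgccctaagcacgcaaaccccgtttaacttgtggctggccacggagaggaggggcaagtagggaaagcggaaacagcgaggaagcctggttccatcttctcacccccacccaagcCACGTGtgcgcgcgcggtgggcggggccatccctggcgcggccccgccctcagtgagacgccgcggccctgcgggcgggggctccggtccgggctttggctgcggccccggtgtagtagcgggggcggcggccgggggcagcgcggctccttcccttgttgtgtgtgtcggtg
Mxd4, chr5:34187661-34187960, minus strand: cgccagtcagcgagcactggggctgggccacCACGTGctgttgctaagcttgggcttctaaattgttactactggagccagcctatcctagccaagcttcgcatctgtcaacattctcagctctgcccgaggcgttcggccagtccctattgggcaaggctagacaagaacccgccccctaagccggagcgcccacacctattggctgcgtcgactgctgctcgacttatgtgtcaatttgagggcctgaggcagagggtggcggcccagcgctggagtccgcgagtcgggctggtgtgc

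Counted from the start of transcription that its window is built on, the E-box begins at −3 in Max, at −123 in Mnt and at −219 in Mxd4. The GC box GGGCGG, searched on both strands, was in 10 of the 11 windows, against 35.7% of all windows. Mxd1 had 6 such matches and Mxd3 had 8, and Max had 0. CCAAT, on either strand, was in 2 of the 11 windows, those of Mxd1 and Mxd4, against 37.4% of all windows.

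Of the 10 genes, 8 reached 1 RPKM in at least 2 libraries and were tested among 12107 genes with limma on log2(RPKM + 1), with p-values adjusted over all 12107. None of the 8 passed at an adjusted p under 0.05, where the test called 0.0991% of all genes, 0.0413% as higher and 0.0578% as lower. At an unadjusted p under 0.05 Myc alone counted, 1 of 8 as higher and 0 of 8 as lower, against 5.05% and 7.20% of all genes. Limma-voom on recovered reads called 0 of the 8 as well. The largest difference was in Myc, which was higher in both B7-H4-null libraries. The 4 Mxd genes (Mxd1, Mxd3, Mxd4 and Mxi1) were lower in both, with limma adjusted p of 0.506 or more. Mxd3 overlapped once the libraries were rescaled. Of all genes, 16.0% were higher in both and 28.0% lower in both, or 22.1% and 22.2% after rescaling. In these bulk samples, fewer cells that express a gene and less RNA per cell cannot be told apart.

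**Figure D1:**
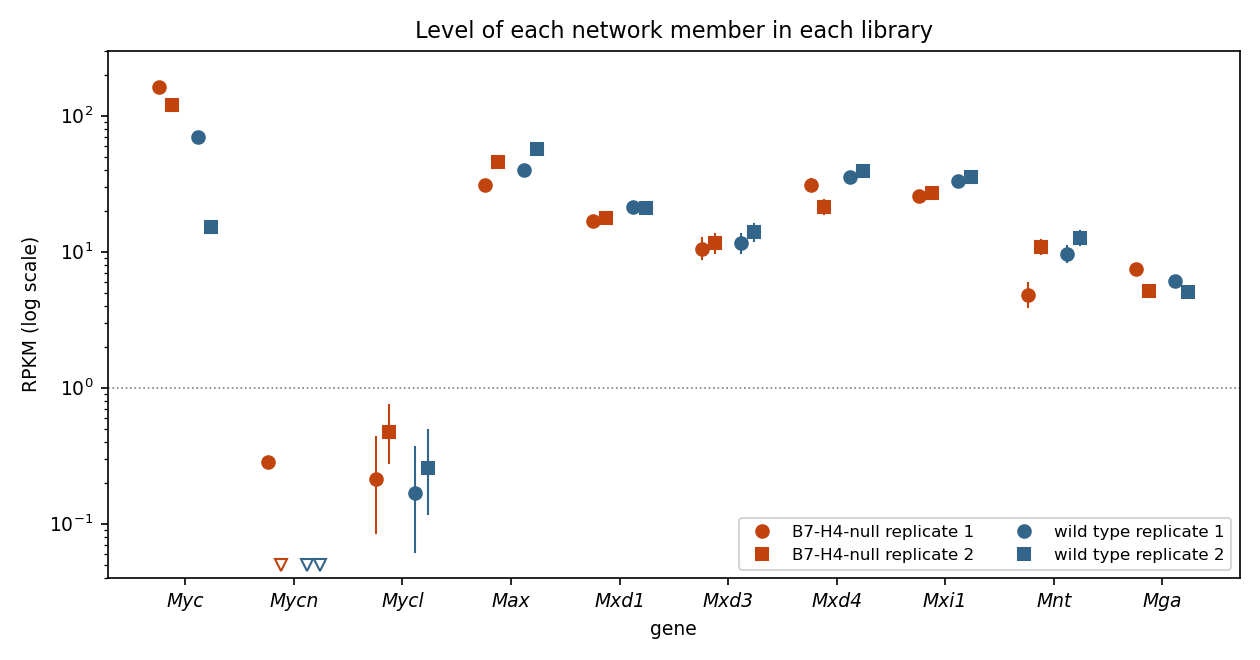
RPKM of each gene (log axis) in each library, with circles for replicate 1, squares for replicate 2 and B7-H4-null libraries left of wild type. Vertical lines are exact 95% Poisson intervals where reads could be recovered, open triangles at the lower edge mark libraries listed at 0, and the dotted line marks 1 RPKM; Myc spans 15.1 to 162 RPKM, while Mxd1 stays between 16.8 and 21.3 RPKM.

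Myc (gene ID 17869, chromosome 15, 61985341 to 61990361), the activator of the network, had 162 and 119.9 RPKM in B7-H4-null libraries, against 69.3 and 15.1 RPKM in the wild-type libraries. These rest on at least 3668 and 3111 reads in B7-H4-null and on at least 1686 and 361 reads in wild type. The groups did not overlap, and wild type replicate 2 was the lowest, 4.57-fold under wild type replicate 1. Counting error was far smaller than that gap, since the exact 95% Poisson intervals of the wild-type libraries were 66.0 to 72.7 and 13.6 to 16.8 RPKM. Such intervals cover counting error only.

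In means Myc was 141 ± 30.0 RPKM in B7-H4-null and 42.2 ± 38.3 RPKM in wild type (SD, n = 2 each), a ratio of 3.34. On the log2 scale the difference was 2.06 ± 0.637 (SE, limma adjusted p = 0.320). It was the 70th highest log2 difference of the 12107 tested genes, and 0.735% of them had a larger difference in either direction. Leaving out wild type replicate 1 gave 3.12 and a call (limma adjusted p = 0.0138). Leaving out wild type replicate 2 brought it down to 1.0 (limma adjusted p = 0.675), so the size rests on that library. Leaving out B7-H4-null replicate 1 gave 1.84 and leaving out replicate 2 gave 2.28 (limma adjusted p = 0.647 and 0.404).

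By level, Myc was the 490th and 781st highest gene of the table in the B7-H4-null libraries and the 1330th and 5641st in the wild-type libraries. Pvt1, the long non-coding gene next to Myc, was below the test filter, with 0.794 and 1.74 RPKM in B7-H4-null and 0.224 and 0.131 RPKM in wild-type libraries. It too was higher in both B7-H4-null libraries, at levels of 1 RPKM or less in 3 of the 4.

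The immediate early response is a set of genes that includes Myc in many cells stimulated to divide. Of 30 tested genes of that list (32 written), 24 had both B7-H4-null values above both wild-type values and 0 had both below. The background over all genes was 16.0% higher and 28.0% lower. The median log2 difference was 1.80, against −0.086 over all genes, and 2 of the 30 had a difference below 0. None passed over all genes. An unadjusted limma p under 0.05 was reached by 20 as higher and 0 as lower, against 5.05% and 7.20% of all genes. Summed over the list, the level was 15662 and 7179 RPKM in B7-H4-null libraries, against 3019 and 4168 RPKM in the wild-type libraries. The list's median was 0.91 without B7-H4-null replicate 1. Of the wild-type libraries, replicate 2 had the lower Myc and the higher sum of this list. This list was chosen with earlier results of these data known, so its shares beside those of all genes are a description. The part of this response in the Myc difference was not tested.

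The other Myc genes of the set, Mycn and Mycl, were close to silent. Mycn, known from neural tissue and blood stem cells, was at 0.286 RPKM in B7-H4-null replicate 1 and was listed at 0 in B7-H4-null replicate 2 and in both wild-type libraries. With GENCODE's exonic length the single value amounts to about 8.88 reads, and 3 reads, about the upper 95% limit for a count of 0, to 0.0842 RPKM in B7-H4-null replicate 2 and 0.0898 and 0.0917 RPKM in wild type. Mycl had 0.212 and 0.475 RPKM in B7-H4-null, against 0.169 and 0.259 RPKM in wild-type libraries, on at least 7 and 18 against at least 6 and 9 reads. The groups overlapped for both genes, and neither was tested. Myc made up 99.7% and 99.6% of the summed RPKM of these 3 Myc genes in B7-H4-null libraries, and 99.8% and 98.3% in wild-type libraries. Bmyc, a Myc family gene outside the set, is not in that sum. It had 7.18 and 7.79 RPKM in B7-H4-null, against 3.16 and 2.15 RPKM in wild-type libraries (limma adjusted p = 0.215).

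Max (gene ID 17187, chromosome 12, 76937269 to 76962323), the partner that the others share, had 31.1 and 45.7 RPKM in B7-H4-null, against 39.7 and 56.7 RPKM in wild-type libraries. The groups overlapped, and the replicates of a genotype differed by more than the genotypes. The log2 difference was −0.32 ± 0.310 (SE, limma adjusted p = 0.711), and leaving out B7-H4-null replicate 1 or 2 gave −0.054 and −0.59, and leaving out wild type replicate 1 or 2 gave −0.58 and −0.072. Myc stood at 5.21 and 2.62 times the RPKM of Max in B7-H4-null libraries, and at 1.74 and 0.267 times in wild-type libraries. Myc RNA was thus above Max RNA in every library but wild type replicate 2.

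Mxd1, Mxd3 and Mxi1 varied least of the network, with 1.27, 1.32 and 1.38 times between their highest and lowest library, against 10.7 times for Myc. Mxd1 (gene ID 17119, chromosome 6, 86647044 to 86669234), a repressor tied to cell cycle exit, had 16.8 and 17.5 RPKM in B7-H4-null libraries. In wild-type libraries it had 21.3 and 21.1 RPKM. The groups did not overlap and the replicates differed by 1.04-fold at most. The log2 difference was −0.29 ± 0.235 (SE, limma adjusted p = 0.660), and stayed between −0.32 and −0.26 with any library left out.

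Mxi1 (gene ID 17859, chromosome 19, 53310128 to 53373293), a repressor first found as a Max interactor, had 25.4 and 27.2 RPKM in B7-H4-null, against 33.2 and 35.1 RPKM in wild-type libraries. Again the groups did not overlap, and the replicates lay close together. Its log2 difference was −0.36 ± 0.237 (SE, limma adjusted p = 0.586), from −0.41 to −0.32 with any library left out. Its 3 promoter windows, 2 of which overlap, held no CACGTG.

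Mxd4 (gene ID 17122, chromosome 5, 34176580 to 34187710), whose E-box window is printed above, had 30.9 and 21.3 RPKM in B7-H4-null, against 35.3 and 39.3 RPKM in wild-type libraries. B7-H4-null replicate 2 was the lowest, and the groups did not overlap. The log2 difference, −0.52 ± 0.276 (SE, limma adjusted p = 0.506), was the largest of the Mxd genes. Leaving out B7-H4-null replicate 1 gave −0.78 and leaving out replicate 2 gave −0.26.

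Mxd3 (gene ID 17121, chromosome 13, 55325170 to 55329900), known from proliferating progenitors in S phase, had 10.5 and 11.5 RPKM in B7-H4-null, against 11.5 and 13.9 RPKM in wild-type libraries. B7-H4-null replicate 2 and wild type replicate 1 were level. Its log2 difference was −0.18 ± 0.247 (SE, limma adjusted p = 0.799), with −0.31 when wild type replicate 1 was left out and −0.060 when replicate 2 was. The gene overlaps Prelid1, which stood at 124 and 184 RPKM in B7-H4-null and 151 and 181 RPKM in wild-type libraries. The library kit, TruSeq RNA v2, does not mark strand, so reads of the overlap cannot be told apart. Mxd1, Mxi1 and Mga also overlap gene models (Gm38850, Gm30541 and Gm13998) that were not analysed here.

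That 4 of the 8 tested genes were lower in both B7-H4-null libraries is to be read against the 28.0% of all genes that were. After median-ratio scaling of the libraries, 22.2% of all genes were lower in both, and so were 3 of the 8, Mxd1, Mxd4 and Mxi1, while Mxd3 overlapped. For genes higher in both the background was 16.0%, or 22.1% after scaling, and Myc was the only member under either.

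Neutrophil maturation is a process in which Mxd1 is known to be induced. Of 30 tested genes of it, 26 lay below 0 and 4 above, and 21 had both B7-H4-null values below both wild-type values and 1 had both above, against 28.0% and 16.0% of all genes, with a median log2 difference of −1.14. None passed over all genes, but an unadjusted limma p under 0.05 was reached by 17 as lower and 1 as higher, against 7.20% and 5.05% of all genes. The summed level was 15304 and 19524 RPKM in B7-H4-null, against 38818 and 29675 RPKM in wild-type libraries. This list too was chosen with earlier results of these data known, so its shares are a description. The part of its genes in the Mxd levels was not tested.

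In Mnt and Mga the genotypes overlapped. Mnt (gene ID 17428, chromosome 11, 74830806 to 74845725), held to be the general antagonist of Myc, had 4.82 and 10.9 RPKM in B7-H4-null, against 9.63 and 12.6 RPKM in wild-type libraries. The groups overlapped, and B7-H4-null replicate 1 lay apart from the other 3. The log2 difference was −0.53 ± 0.381 (SE, limma adjusted p = 0.615), and it was −0.019 once B7-H4-null replicate 1 was left out and −1.05 once replicate 2 was.

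Mga (gene ID 29808, chromosome 2, 119872503 to 119970129), a large protein with a T-box as well as a Max-binding domain, had 7.41 and 5.13 RPKM in B7-H4-null, against 6.09 and 5.01 RPKM in wild-type libraries. The groups overlapped. The log2 difference was 0.14 ± 0.279 (SE, limma adjusted p = 0.871), and its sign turned without B7-H4-null replicate 1, at −0.091.

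**Figure D2:**
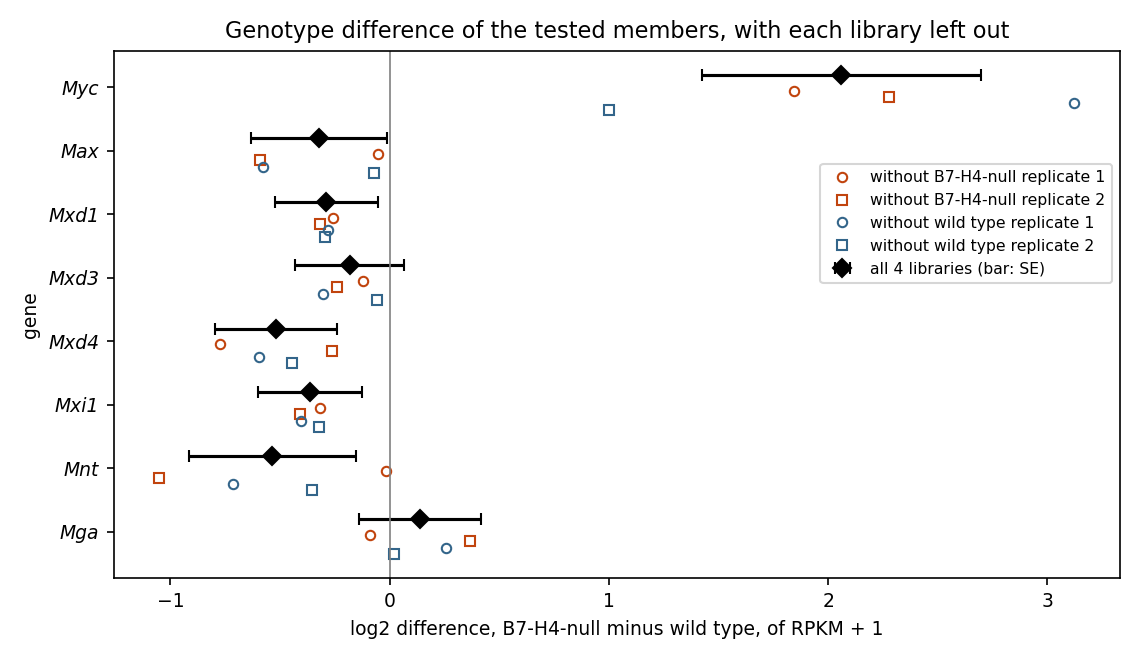
Log2 difference (B7-H4-null minus wild type, of RPKM + 1) of the 8 tested genes, as black diamonds with SE bars for all 4 libraries and open symbols for fits that leave out 1 library. Myc lies at 2.06 with a range of 1.0 to 3.12, and the 4 Mxd genes lie between −0.52 and −0.18.

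Ordered by mean RPKM in B7-H4-null libraries, Myc (141 ± 30.0) led, ahead of Max (38.4 ± 10.3), Mxi1 (26.3 ± 1.22), Mxd4 (26.1 ± 6.75), Mxd1 (17.2 ± 0.515), Mxd3 (11.04 ± 0.699), Mnt (7.85 ± 4.29) and Mga (6.27 ± 1.62). In wild-type libraries Max (48.2 ± 12.03) led, ahead of Myc (42.2 ± 38.3), Mxd4 (37.3 ± 2.82), Mxi1 (34.1 ± 1.38), Mxd1 (21.2 ± 0.155), Mxd3 (12.7 ± 1.65), Mnt (11.1 ± 2.13) and Mga (5.55 ± 0.762). All are mean ± SD with n = 2. Among neighbours in the B7-H4-null order, the library values overlapped between Mxi1 and Mxd4, Mxd3 and Mnt, and Mnt and Mga. Among neighbours in the wild-type order they overlapped between Max and Myc, Myc and Mxd4, and Mxd3 and Mnt.

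The balance between Myc and the Mxd genes followed from these levels. The RPKM of the 4 Mxd genes summed to 83.7 and 77.6 in B7-H4-null libraries, against 101 and 109 in wild-type libraries. Myc over that sum was 1.94 and 1.55 in B7-H4-null, against 0.684 and 0.139 in wild-type libraries. In RPKM as deposited, Myc outweighed the summed Mxd genes in both B7-H4-null libraries and in neither wild-type library. The length recovered for Mxd4 was 1179 bases, against 8483 exonic bases in GENCODE. For Myc these were 2399 and 2717 bases, so with other lengths this order could differ. Mxd RNA over Max RNA was 2.69 and 1.70 in B7-H4-null and 2.55 and 1.93 in wild-type libraries, and overlapped. Of the summed RPKM of the 9 genes other than Max, Myc took 62.7% and 56.0% in B7-H4-null libraries, and 37.2% and 10.6% in wild-type libraries. These ratios were formed from genes chosen with their values known and carry no test.

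**Figure D3:**
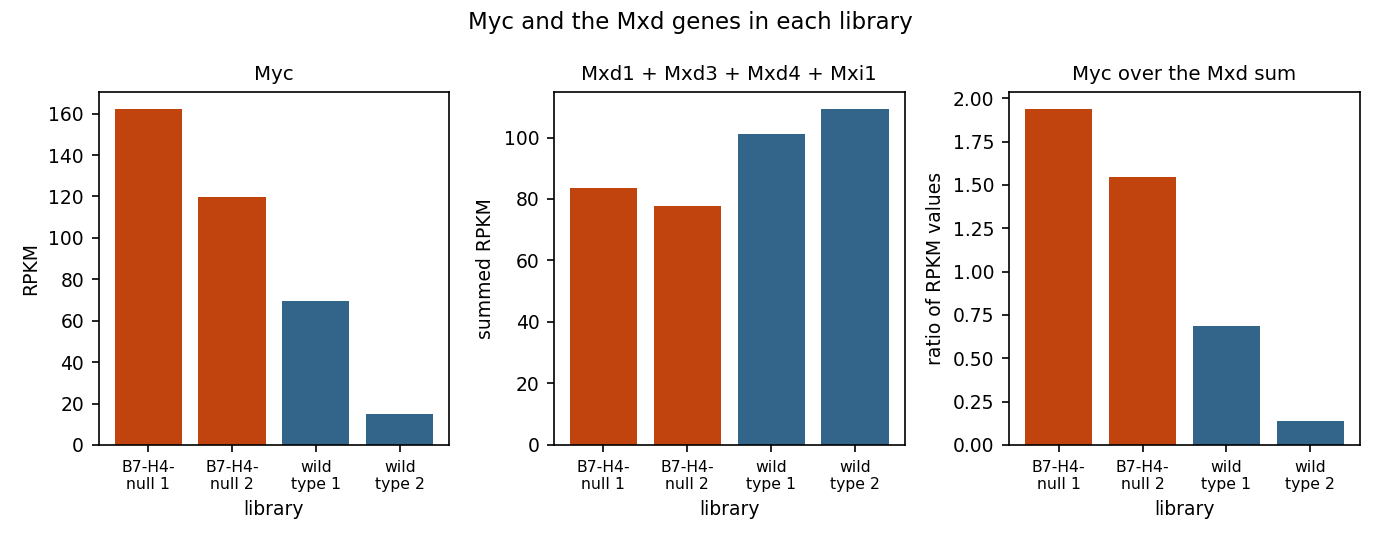
Bars of Myc RPKM, of the summed RPKM of the 4 Mxd genes, and of their ratio, in B7-H4-null (orange) and wild-type (blue) libraries, 1 bar per library, so no error bars are drawn. The ratio is 1.94 and 1.55 in B7-H4-null against 0.684 and 0.139 in wild type, and within wild type Myc differs 4.57-fold while the Mxd sum is 101 and 109 RPKM.

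Genes that Myc is known to activate in growth and the nucleolus were mostly above 0. Of 42 tested, 39 had a log2 difference above 0, and 11 had both B7-H4-null values above both wild-type values (26.2%) and 0 had both below, against 16.0% and 28.0% of all genes. None passed over all genes, but an unadjusted p under 0.05 was reached by 5 as higher and 0 as lower, against 5.05% and 7.20% of all genes. The median was 0.35, against −0.086 for all genes, and after scaling 24 of the 42 (57.1%) were higher in both, against 22.1% of all genes. Without B7-H4-null replicate 2 the median was 0.0033, and without replicate 1 it was 0.64. The list's sum was 2434 and 3408 RPKM in B7-H4-null libraries, against 2297 and 1872 RPKM in wild-type libraries. B7-H4-null replicate 1, with the most Myc, was thus close to wild type replicate 1. The part of Myc in the differences of this and the other target lists was not tested. These lists were chosen with earlier results of these data known, so their shares are a description.

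In that list the smallest p-values were those of Npm1, Eif4a1, Nop56 and Nop2. Npm1, a nucleolar chaperone of ribosome assembly, had 245 and 297 RPKM in B7-H4-null, against 149 and 143 RPKM in wild-type libraries (limma adjusted p = 0.306). Eif4a1, the helicase of translation initiation, had 172 and 169.7 against 112 and 71.1 RPKM (limma adjusted p = 0.328). Nop56, a core protein of the snoRNPs that modify ribosomal RNA, had 195 and 108 against 86.3 and 35.3 RPKM (limma adjusted p = 0.337). Nop2, a ribosomal RNA methyltransferase, had 53.6 and 65.0 against 43.4 and 31.2 RPKM (limma adjusted p = 0.405).

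Metabolic genes that Myc is known to activate were also mostly above 0. Of 59 tested, 52 lay above 0, and 25 had both B7-H4-null values above both wild-type values (42.4%) and 3 had both below (5.08%), against 16.0% and 28.0% of all genes. None passed over all genes, but an unadjusted p under 0.05 was reached by 11 as higher and 1 as lower, against 5.05% and 7.20% of all genes. The median log2 difference was 0.40, or 0.12 and 0.64 when B7-H4-null replicate 2 or 1 was left out and 0.23 when wild type replicate 2 was. Phgdh, the entry enzyme of serine synthesis, had 11.01 and 19.5 RPKM in B7-H4-null, against 3.32 and 3.17 RPKM in wild-type libraries (limma adjusted p = 0.137). Ppargc1b, a coactivator of mitochondrial genes, had 2.44 and 3.04 against 0.512 and 0.385 RPKM (limma adjusted p = 0.178). Slc2a1, a glucose transporter, had 99.0 and 38.8 against 18.1 and 10.5 RPKM (limma adjusted p = 0.228), and Impdh2, of guanine nucleotide synthesis, 58.0 and 29.2 against 20.1 and 12.1 RPKM (limma adjusted p = 0.311).

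Cell cycle genes that Myc is known to activate did not lean either way. Of 33 tested, 15 lay above 0 and 18 below, 5 had both B7-H4-null values above both wild-type values and 5 had both below, against 16.0% and 28.0% of all genes. None passed over all genes, but an unadjusted limma p under 0.05 was reached by 2 as higher and 1 as lower, against 5.05% and 7.20% of all genes. The median was −0.029, and 0.073 after scaling. Ccnd1, a D-type cyclin, had 5.98 and 21.9 RPKM in B7-H4-null, against 0.883 and 1.33 RPKM in wild-type libraries (limma adjusted p = 0.188). Ccnd2, another D-type cyclin, had 3.77 and 5.24 against 1.14 and 1.15 RPKM (limma adjusted p = 0.183). E2f2 and E2f3, transcription factors of S phase entry, were lower in both, with 8.31 and 18.8 against 22.9 and 33.8 RPKM and 2.52 and 4.03 against 6.38 and 5.10 RPKM (limma adjusted p = 0.364 and 0.422).

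Genes that Myc is known to repress went both ways. Of 26 tested, 15 lay above 0 and 11 below, and 8 had both B7-H4-null values above both wild-type values and 4 had both below, against 16.0% and 28.0% of all genes. None passed over all genes, but an unadjusted limma p under 0.05 was reached by 6 as higher and 3 as lower, against 5.05% and 7.20% of all genes. The median of 0.27 was −0.0051 without B7-H4-null replicate 1. Klf6, a zinc finger factor that also stands in the immediate early list, had 134 and 101 RPKM in B7-H4-null, against 21.6 and 46.8 RPKM in wild-type libraries (limma adjusted p = 0.207). Timp2, an inhibitor of metalloproteinases, had 2.02 and 0.996 against 3.86 and 5.28 RPKM (limma adjusted p = 0.285). Fth1, the ferritin heavy chain, had 1360.3 and 797 against 418 and 525 RPKM (limma adjusted p = 0.319).

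**Figure D4:**
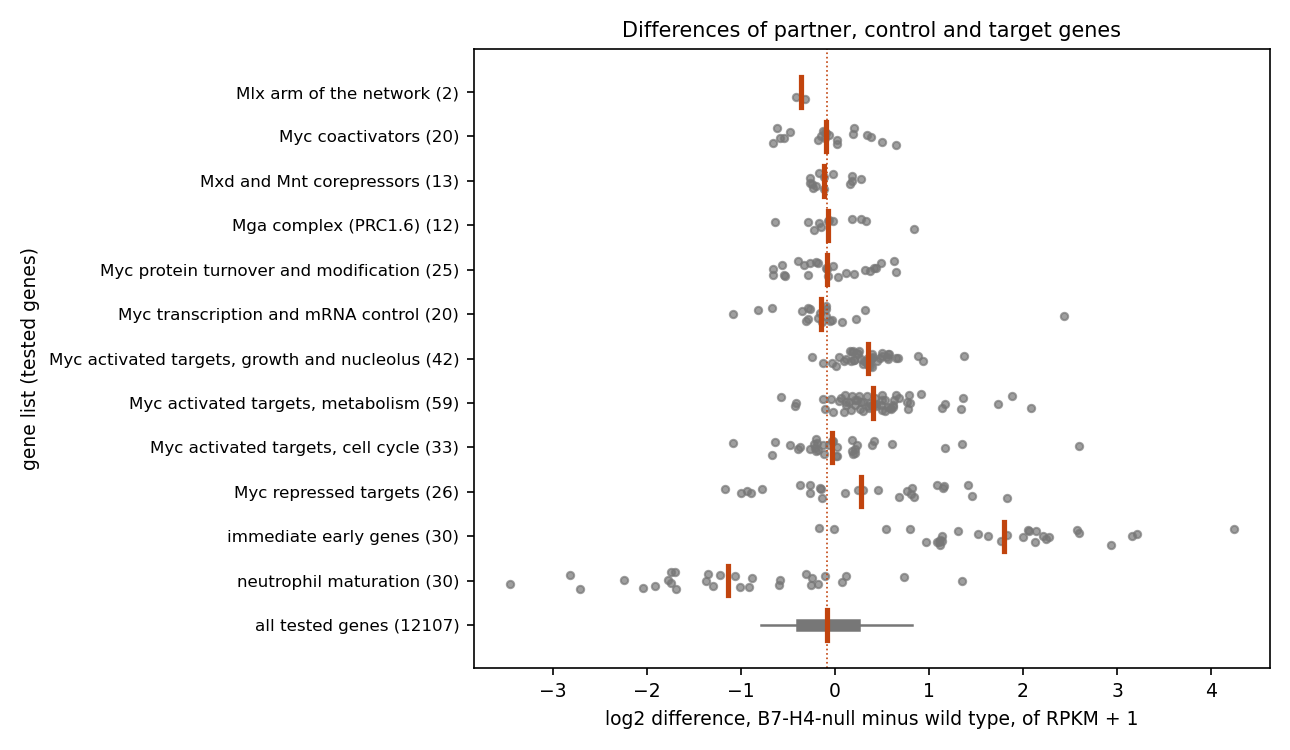
Log2 difference (B7-H4-null minus wild type, of RPKM + 1) of each tested gene of 12 lists, 1 grey point per gene, with the median as an orange bar and the number tested in brackets. The bottom row gives all 12107 tested genes as a thick line from the 25th to the 75th and a thin line from the 5th to the 95th percentile; the medians of the growth and metabolic target lists are 0.35 and 0.40 and that of all genes −0.086.

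The cofactors of the network lay near the median of all genes. Of 20 coactivators that Myc recruits, 4 had both B7-H4-null values above both wild-type values and 5 had both below, against 16.0% and 28.0% of all genes, with a median of −0.10, and 1 was lower at an unadjusted p under 0.05. Hcfc1, a cell cycle coregulator, had 31.3 and 34.7 RPKM in B7-H4-null, against 45.1 and 57.8 RPKM in wild-type libraries (limma adjusted p = 0.405). Of 13 corepressor genes of the Mxd and Mnt proteins, 0 were higher and 3 lower in both, against the same shares. Their median was −0.12, and after median-ratio scaling it was −0.019, with 1 higher and 1 lower in both. Sin3a, the scaffold that the Mxd proteins bind, had 18.5 and 18.8 RPKM in B7-H4-null, against 22.1 and 22.8 RPKM in wild-type libraries (limma adjusted p = 0.703). Neither list had a gene that passed over all genes. The corepressors had 0 at an unadjusted limma p under 0.05, where 5.05% of all genes were higher and 7.20% lower.

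Of 12 genes of the Mga complex, 1 had both B7-H4-null values above both wild-type values and 3 had both below, against 16.0% and 28.0% of all genes. At an unadjusted limma p under 0.05, 1 was higher and 0 lower, against 5.05% and 7.20% of all genes. The median of −0.072 turned to 0.023 after median-ratio scaling, with 3 above and 2 below, and to 0.076 without B7-H4-null replicate 1. The gene at an unadjusted p under 0.05 was Pcgf6, the RING-domain partner that defines the complex, with 2.43 and 4.76 RPKM in B7-H4-null, against 1.79 and 1.2 RPKM in wild-type libraries (limma adjusted p = 0.387). Mlx and Mlxip, a parallel arm of the network that senses glucose metabolites, were the 2 tested of its 3 genes. Mlx had 27.7 and 38.1 RPKM in B7-H4-null, against 40.1 and 41.5 RPKM in wild-type libraries (limma adjusted p = 0.666). Mlxip had 8.27 and 14.3 against 14.3 and 15.5 RPKM (limma adjusted p = 0.627), where B7-H4-null replicate 1 was low and the groups overlapped.

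Genes that control the Myc protein or its RNA were also without a call. Of 25 genes of protein turnover and modification, 3 had both B7-H4-null values above both wild-type values and 7 had both below, near the 16.0% and 28.0% of all genes, and after median-ratio scaling these were 5 and 6. An unadjusted limma p under 0.05 was reached by 0 as higher and 2 as lower, against 5.05% and 7.20% of all genes. Gsk3b, the kinase that marks Myc for degradation, had 6.88 and 6.85 RPKM in B7-H4-null, against 10.7 and 12.2 RPKM in wild-type libraries (limma adjusted p = 0.361), with no overlap and replicates close together. Fbxo28, a ubiquitin ligase subunit that targets Myc, had 4.86 and 5.95 against 8.67 and 9.49 RPKM (limma adjusted p = 0.369). Usp28, which removes ubiquitin from Myc, had 3.92 and 4.16 against 3.20 and 1.46 RPKM (limma adjusted p = 0.488).

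Of 20 genes acting on Myc transcription or mRNA, 1 had both B7-H4-null values above both wild-type values and 6 had both below, against 16.0% and 28.0% of all genes, and after median-ratio scaling these were 3 and 5. An unadjusted limma p under 0.05 was reached by 1 as higher and 2 as lower, against 5.05% and 7.20% of all genes. The higher one was Lin28b, an RNA-binding protein that blocks let-7 microRNAs, with 16.2 and 16.6 RPKM in B7-H4-null, against 0.584 and 5.50 RPKM in wild-type libraries. Its log2 difference was 2.44 ± 0.605 (SE, limma adjusted p = 0.250). Without wild type replicate 2 it was 3.46 and passed (limma adjusted p = 0.00323), and without wild type replicate 1 it was 1.42 (limma adjusted p = 0.177). The 2 lower ones were Stat3 and E2f2, which, like E2f3, also stands in the cell cycle target list above. Stat3, a transcription factor of cytokine signals, had 32.2 and 50.8 against 60.4 and 86.3 RPKM (limma adjusted p = 0.383).

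By the distance between centred log2(RPKM + 1) profiles over the 4 libraries, the genes most like Myc were Icam2, Tmprss3 and Nop56, at 0.846, 0.935 and 0.962. Icam2, an adhesion molecule, had 39.9 and 35.6 RPKM in B7-H4-null, against 22.5 and 7.93 RPKM in wild-type libraries. Tmprss3, a membrane serine protease, had 32.5 and 17.0 against 17.2 and 4.82 RPKM. The genes most like Mxd1 were Gopc, Eif2ak1 and Il4i1b, at 0.0140, 0.0162 and 0.0166. With 4 libraries these distances are a description and carry no test.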

How the data were processed

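RNA was sequenced from sorted LSCs, 2 libraries per genotype, with the TruSeq RNA v2 kit, per the labels' protocols. Reads were aligned with TopHat2 2.0.12 to GRCm38, per the submitters' processing notes, and no source used here names the counting program. The authors deposited RPKM per Entrez gene ID for 27179 genes, of which 25275 matched a symbol. From these, limma 3.58.1 (R 4.3.3) was run on log2(RPKM + 1) with a mean-variance trend and genotype as the only term, on the 12107 genes with at least 1 RPKM in at least 2 libraries, with Benjamini-Hochberg adjustment. Fold changes on this scale understate those of low genes.

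Reads were recovered from the steps of the RPKM values. All 14608 genes above 0 in every library gave whole reads within 0.001 read. They are the smallest whole reads that fit, so a factor common to all 4 libraries cannot be seen, and the Poisson intervals are then too wide. Median-ratio scaling, other pseudocounts and filters, no trend, a replicate block, limma-voom on recovered reads and leaving out each library were the alternatives. The script was tested on simulated data. The members and lists were chosen with earlier results of these data known. Besides the 10 genes, up to 4 tested genes of each list were named by smallest p, some of them left out of the text, and 3 each for likeness to Myc and Mxd1. Reads of overlapping genes cannot be told apart without strand.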

Additional observations from a re-analysis of the deposited data

How the results depend on the processing

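Of the 88 log2 differences of the 8 tested network genes under 11 alternatives, 86 kept their direction and their side of the threshold. Myc passed without wild type replicate 1, and Mga reversed, with a range of −0.091 (B7-H4-null replicate 1 left out) to 0.37 (replicate 2 left out). The number of network genes called was 0 under all alternatives that keep the 4 libraries, and 0 to 1 when a library was left out. Over all genes the 12 calls became 0 with no filter on low values, where 799 genes were higher and 1088 lower at an unadjusted limma p under 0.05 among 20517. With a library left out they ranged from 0 to 56, with 0 without B7-H4-null replicate 1 (489 higher and 448 lower at an unadjusted limma p under 0.05), 0 without B7-H4-null replicate 2 (619 higher and 857 lower), 56 with wild type replicate 1 left out and 29 with wild type replicate 2 left out. A lone library is then assumed to vary like the other group. The causes were not tested. Median-ratio scaling turned the split at an unadjusted p under 0.05 to 781 higher and 644 lower, against 612 higher and 872 lower as deposited.

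The labels number the replicates 1 and 2 in both genotypes without saying that a number is shared. Deviations of same-numbered libraries correlated at 0.247, over 2 pairs, too few to tell whether the numbers pair the libraries, which were treated as unpaired. The replicate block gave 21 calls over all genes, and 0 of the network. With 2 libraries a group, an exact permutation test of a single value cannot go below 0.33. Mycn and Mycl, at 0.475 RPKM or less, are at the limit of this depth.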

Other observations

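Over all tested genes with a promoter window, 1084 held CACGTG and 7798 did not. The median log2 difference (B7-H4-null minus wild type) was −0.076 in genes with the E-box and −0.10 in genes without it. Genes higher in both B7-H4-null libraries made up 15.1% of those with the E-box and 15.1% of those without it, and genes lower in both 26.7% and 30.0%. Among growth and nucleolus targets, 11 of the 37 with a window held it, with a median of 0.31, and among metabolic targets 11 of 54, with a median of 0.34. Among cell cycle targets 4 of 27 held it, with a median of −0.25, and among genes that Myc is known to repress 3 of 19, with a median of 1.41. These are descriptions, and the letters in a promoter window do not show binding.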
